A study of Homo sapiens with 2 samples.

Results

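The genes described here are regulators and receptors of T helper type 2 (Th2) and type 17 (Th17) lymphocytes, read in a myeloid cell line after knockdown of the type 1 regulator T-bet. The set holds 9 genes, chosen by name: the transcription factors GATA3, MAF, RORA, AHR, BCL6 and TCF7, and the receptors IL1RL1, CCR4 and PTGDR2. Their members are all probe sets that the platform annotation assigns to these symbols, which gave 28 of the 54675 probe sets on the array and 8 of its 19775 named genes. TCF7 matched no probe set in the annotation used and was not analysed here.

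The cells were KG1, an established human line from an acute myeloid leukaemia that carries the progenitor antigen CD34. By electroporation they received 1.98 µg of siRNA, either one directed at T-bet (the siRNA-Tbet cells) or a control (the siRNAc cells). Both groups then rested for 5 h and received interleukin-18 at 10 ng/ml for 12 h, so no unstimulated cells are part of the comparison. Total RNA of each group was read on 1 Affymetrix 3' expression array, whose values are MAS5 signals in arbitrary units. With 1 array per group there is no replicate error and no test, and the number of arrays limits the precision of every value below.

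T-bet, encoded by TBX21, directs type 1 responses, and GATA3 directs the opposing type 2 response, in which IL-4, IL-5 and IL-13 are made. In T cells T-bet can bind GATA3 protein and oppose its action, and loss of T-bet is known to release type 2 genes. The nuclear receptor RORα takes part in the Th17 programme, with help from MAF and AHR. BCL6 is the repressor that directs follicular helper T cells. Several of these factors also work outside T cells, in mast cells, innate lymphoid cells and blood progenitors.

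TBX21, the targeted transcript, had 1839 signal units after siRNA-Tbet against 3581 after siRNAc, a log2 ratio of -0.96 (48.7% lower). All ratios below are siRNA-Tbet over siRNAc. Signals under 146, the higher of the medians of the arrays over non-control probe sets, were raised to that floor, and a probe set above it on at least 1 array is called measured. This held for 28947 of 54613 non-control probe sets (53%) and for 11 of the 28 member probe sets. Among the measured probe sets, 201 differed at least 2-fold in either direction (0.694%), 1856 differed at least 1.5-fold (6.41%), and 48.5% were higher with siRNA-Tbet. Ratios of 1 gene's probe sets varied with an SD of 0.25 on the log2 scale over 6140 genes (from the difference of the brightest pair). This spread compares different probe sets on the same arrays, so it is not purely technical noise. It holds no variation between cultures or transfections.

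Differences between the arrays were small at the members. Of the 11 measured member probe sets, 10 were above the floor on both arrays, with log2 ratios from -0.29 to 0.40. The other, 209603_at of GATA3, was under the floor with siRNAc, so its ratio is at least 0.58, and whether it passes 1.5-fold depends on the setting: its log2 ratio was at least 0.60 under median scaling and 0.78 with the signals as deposited. None of the 11 reached 2-fold (0.694% of all measured probe sets did), and 0 or 1 passed 1.5-fold (6.41% did). Of the 11, 6 were higher and 5 were lower with siRNA-Tbet, which is 54.5% higher against 48.5% of all measured probe sets. Every measured probe set of GATA3 and IL1RL1 was higher, and every one of BCL6, AHR and PTGDR2 was lower. AHR and PTGDR2 have 1 measured probe set each, so only GATA3, IL1RL1 and BCL6 had probe sets that could differ in direction. The median log2 ratio of the 11 was 0.08, beside -0.01 over all measured probe sets. Over the 5 measured genes, each read by its probe set of highest signal, the median was -0.09, beside -0.02 over all 12309 measured genes. The median of probe sets and that of genes thus differ in sign, and GATA3 and IL1RL1 hold 6 of the 11 probe sets.

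**Figure D1:**
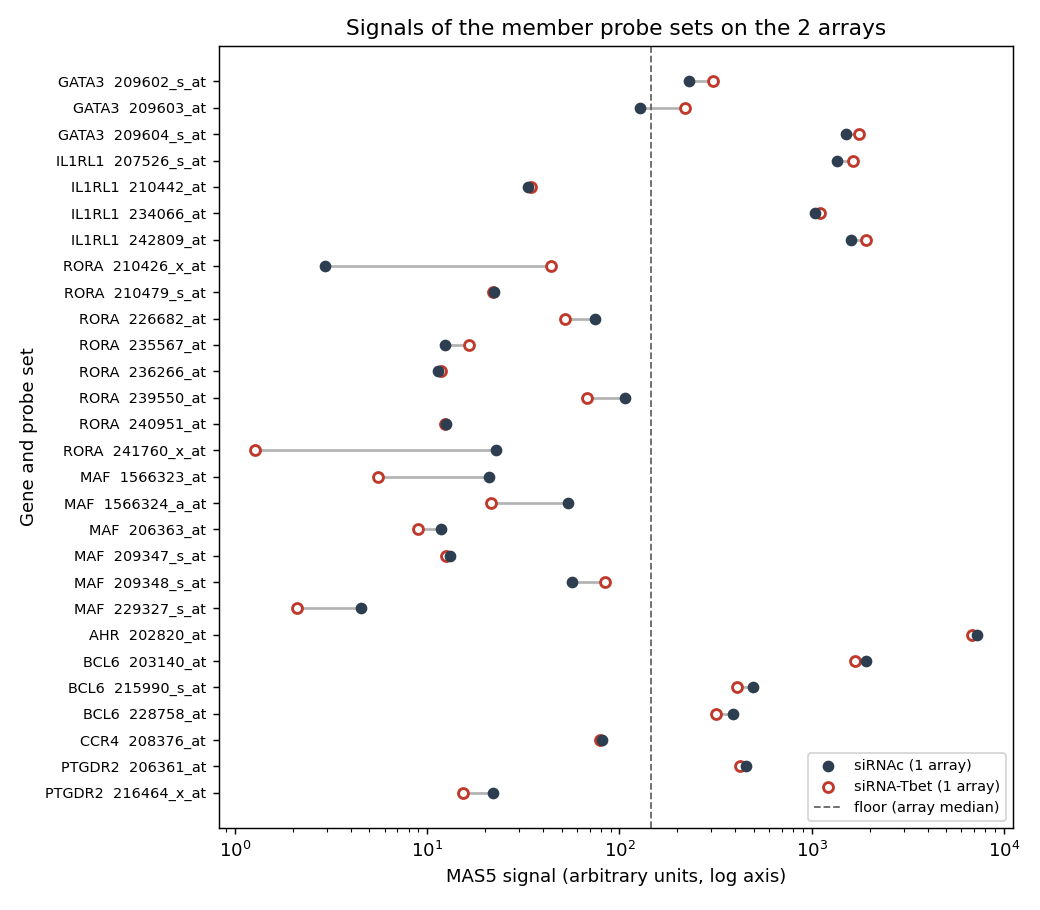
MAS5 signal (arbitrary units, log axis) of each of the 28 member probe sets on the siRNA-Tbet array (open red circles) and the siRNAc array (filled dark circles), 1 array each, with the floor of 146 as a dashed line. All 3 probe sets of GATA3 have the open circle to the right, all 3 of BCL6 have it to the left, and the 15 probe sets of RORA, MAF and CCR4 lie left of the floor.

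GATA3, the master transcription factor of Th2 cells and a zinc finger protein of the GATA family, was above the floor in KG1 cells and higher with siRNA-Tbet at each of its 3 probe sets. Probe set 209604_s_at gave 1749 signal units with siRNA-Tbet against 1515 with siRNAc, 1.15-fold higher (log2 ratio 0.21). Probe set 209602_s_at had 306 and 231, a log2 ratio of 0.40. Probe set 209603_at had 219 with siRNA-Tbet and 128, under the floor, with siRNAc, so that its log2 ratio is at least 0.58. The 3 ratios thus share a direction but not a size, and the larger ones come from the probe sets of lower signal. The 3 probe sets share 1 RNA sample per group and are not replicates, and no mean is given because one ratio is a bound. Among measured probe sets of like signal (the same of 10 equal groups by signal, called deciles), 209604_s_at lay at percentile 86.3 and 209602_s_at at 86.1. Both were inside the middle 95% of their deciles, which for 209604_s_at ran from -0.45 to 0.43. Of the 1664 genes on the array with exactly 3 measured probe sets, 14.7% had all 3 higher, so a shared direction over 3 probe sets is common on these arrays.

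IL1RL1 encodes ST2, the receptor for the alarmin IL-33, and is carried by Th2 cells, mast cells and type 2 innate lymphoid cells, where GATA factors drive its expression. It was higher with siRNA-Tbet at its 3 measured probe sets. Probe set 242809_at had 1922 with siRNA-Tbet and 1590 with siRNAc (1.21-fold, log2 ratio 0.27, percentile 91.8 of its decile). Probe set 207526_s_at had 1628 and 1358 (log2 ratio 0.26, percentile 90.7). Probe set 234066_at had 1099 and 1040 (log2 ratio 0.08, percentile 66.1). The first and second of these differ by nearly the same amount, and the third is close to equal on the arrays. The fourth, 210442_at, had 34.8 and 33.3, below the floor on both, and gives no ratio. The mean over the 3 measured probe sets was 0.20 with an SD of 0.11, and these probe sets share 1 RNA sample per group and are not replicates. IL1RL1 has both a membrane form and a secreted form that acts as a decoy, and the annotation used does not say which form each probe set reads.

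The windows of 250 bases before the RefSeq starts of the members (GRCh38.p14) were searched for motifs on both strands. This search was chosen after the ratios of GATA3 and IL1RL1 were seen, and action of T-bet at these starts was not tested. The motifs were the T-box half-site TCACACC, its shorter core TCACAC, which every half-site contains, and the GATA site, taken as AGATAA, with T allowed as its first base and G as its last. RefSeq lists 16 such starts for 8 of the members, and none for PTGDR2 in the table used. The half-site was in 0 of the 16 windows and in 2.76% of all 35116 windows of this length. The core was in 2 of 16 (9.9% of all windows), 1 of the 6 starts of GATA3 and 1 of the 2 starts of IL1RL1. A GATA site was in 2 of 16 (22.3% of all windows), 1 start of IL1RL1 and the only start of CCR4. The upstream start of IL1RL1 had 4 GATA sites and the downstream start had 0. A match is a description of letters, and the arrays do not tell which start was in use. The windows of IL1RL1 and that of GATA3 with a T-box core are printed because they belong to the members that were higher at every measured probe set; all lie on the plus strand, and capitals mark the GATA sites and the T-box core.
IL1RL1 upstream start, chr2:102311313-102311562: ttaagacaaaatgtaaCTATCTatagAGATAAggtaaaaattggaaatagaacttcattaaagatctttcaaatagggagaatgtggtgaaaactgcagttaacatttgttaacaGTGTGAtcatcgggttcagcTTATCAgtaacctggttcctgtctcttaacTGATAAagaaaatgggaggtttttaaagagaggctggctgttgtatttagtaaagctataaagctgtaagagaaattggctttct
IL1RL1 downstream start, chr2:102337007-102337256: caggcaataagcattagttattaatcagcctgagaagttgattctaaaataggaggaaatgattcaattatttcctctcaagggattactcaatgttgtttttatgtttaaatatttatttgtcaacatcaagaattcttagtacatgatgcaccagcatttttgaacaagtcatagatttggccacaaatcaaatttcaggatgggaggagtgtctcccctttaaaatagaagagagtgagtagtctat
GATA3 start with a T-box core, chr10:8045083-8045332: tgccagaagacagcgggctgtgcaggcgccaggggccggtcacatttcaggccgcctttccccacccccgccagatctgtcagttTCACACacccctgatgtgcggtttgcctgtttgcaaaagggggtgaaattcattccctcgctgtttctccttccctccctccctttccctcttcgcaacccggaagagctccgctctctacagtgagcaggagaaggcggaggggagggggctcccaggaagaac
In the upstream window of IL1RL1 the GATA sites begin 234, 224, 115 and 85 bases before the start, and the T-box core, on the minus strand, begins 135 bases before it. In the GATA3 window the core begins 165 bases before the start.

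BCL6, a zinc finger repressor that directs follicular helper T cells and germinal centre B cells, was lower with siRNA-Tbet at each of its 3 probe sets. Probe set 203140_at gave 1685 with siRNA-Tbet against 1908 with siRNAc, a difference of -0.18 on the log2 scale (11.7% lower). Probe set 215990_s_at had 410 and 496 (log2 ratio -0.27), and 228758_at had 319 and 391 (log2 ratio -0.29). The 3 ratios had a mean of -0.25 and an SD of 0.06, over probe sets that share 1 RNA sample per group and are not replicates. They lay at percentiles 21.0, 21.4 and 19.9 of their deciles, so about 1 in 5 probe sets of like signal was as low or lower. Of the genes with 3 measured probe sets, 18.6% had all 3 lower.

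AHR, the ligand-activated aryl hydrocarbon receptor that supports IL-22 and Th17 responses, is read by the single probe set 202820_at. It gave 6787 with siRNA-Tbet against 7227 with siRNAc, a difference of -0.09 on the log2 scale (6.09% lower). The median probe set at that signal was at 0.04, and the spread between probe sets of a gene was 0.12. AHR lay at percentile 16.7 of that decile, inside its middle 95% (-0.28 to 0.30).

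PTGDR2 encodes CRTH2, the prostaglandin D2 receptor that marks Th2 cells, eosinophils and basophils. Its probe set 206361_at had 426 with siRNA-Tbet and 455 with siRNAc (log2 ratio -0.10, percentile 40.2 of its decile), a smaller difference than the spread of 0.34 between probe sets of a gene at that signal. The other, 216464_x_at, of a type that can cross-hybridise, was below the floor on both arrays (15.3 and 21.9). PTGDR2 therefore differed little between the arrays, and its direction rests on 1 probe set.

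**Figure D2:**
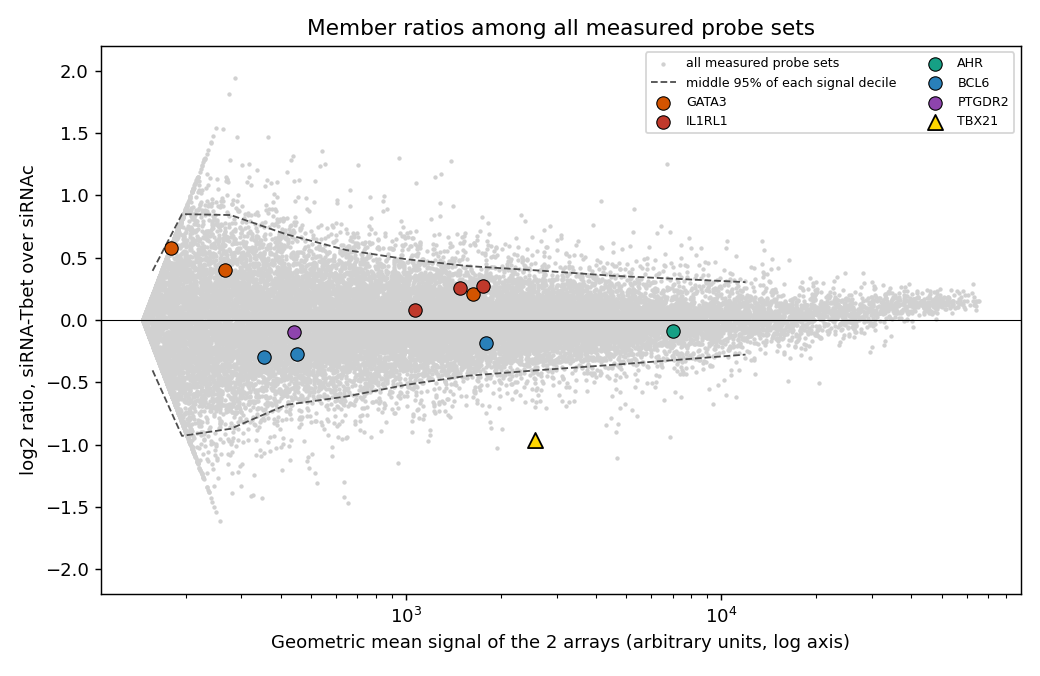
log2 ratio of siRNA-Tbet over siRNAc against the geometric mean signal (arbitrary units, log axis) for all 28947 measured probe sets (grey; 3 lie outside the plotted range), with the middle 95% of each signal decile as dashed lines. The 11 member probe sets (circles; 209603_at of GATA3 is drawn at its lower bound) lie inside the range of their deciles, and TBX21 (triangle, -0.96) lies below it.

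MAF, RORA and CCR4 were below the floor at all of their probe sets on both arrays, so their signals are given as deposited and no ratio is read from them. MAF, the bZIP factor that drives IL-4 in Th2 cells and IL-21 in follicular and Th17 cells, has 6 probe sets. Their signals ran from 2.11 to 83.7 with siRNA-Tbet (median 10.8) and from 4.55 to 56.6 with siRNAc (median 17.1). RORA encodes the nuclear receptor RORα, which acts in Th17 cells and is needed for type 2 innate lymphoid cells. Its 8 probe sets ran from 1.27 to 68.0 with siRNA-Tbet (median 19.3) and from 2.96 to 107 with siRNAc (median 17.4). CCR4, the chemokine receptor of Th2 and regulatory T cells, had 78.8 and 81.5 at its only probe set.

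Ratios of such low signals are not interpretable, as the probe sets of RORA show. Without a floor, 210426_x_at had a log2 ratio of 3.90 (44.1 against 2.96) and 241760_x_at had -4.17 (1.27 against 22.8), while 210479_s_at had 22.1 against 22.3. Of the 15 probe sets of these 3 genes, 2 of RORA and 3 of MAF differ at least 2-fold when no floor is used. Among all 25666 probe sets below the floor on both arrays, 43% do so (22.6% of all non-control probe sets), a larger share than the 5 of 15 here. The remaining 10 differ by less than 2-fold.

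Genes that work with GATA3 had mixed directions. Of 13 GATA paralogs and partners with a probe set, 10 were measured, of which 6 were higher and 4 lower. Of these, 0 differed 2-fold (0.577% of all measured genes did), and the median log2 ratio was 0.12 beside -0.02 for all genes. Among all measured genes 46.5% were higher, and the shares of 0.577% and 46.5% also stand beside the counts of each gene list below. GATA2, which maintains progenitors and mast cells and binds the same DNA motif as GATA3, was higher at 3 of 3 probe sets. Its probe set 207954_at had 853 with siRNA-Tbet and 357 with siRNAc, 2.39-fold higher and at percentile 99.9 of its decile. The other 2 probe sets of GATA2 had log2 ratios of 0.45 (15712 against 11483) and 0.18 (2839 against 2514), so the size is not shared among them. GATA6 was 1.68-fold lower at its only measured probe set (152 against 256), close to the floor. RUNX3, which works with T-bet in type 1 cells, had log2 ratios of -0.42 and -0.24 at its 2 measured probe sets (7215 against 9631 for the first). They lay at percentiles 0.60 and 8.24 of their deciles.

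Genes around IL1RL1 differed in both directions. Of 10 genes with a probe set in a list of the IL-33 receptor pathway and related receptors, 7 were measured, 3 higher and 4 lower. The median log2 ratio was -0.05, and 0 passed 2-fold. These counts include the chains of the receptor for IL-18, the cytokine given to both groups. Of these, IL18R1 had a log2 ratio of 0.09 and IL18RAP had -0.05, which is the list median. The receptors IL1R2 and IL1RL2, also in the list, were below the floor. IL33, the ligand, was below the floor (1.54 and 4.07). IL1RAP, the co-receptor that ST2 needs for signalling, had log2 ratios of -0.35 (372 against 474) and 0.09 at its probe sets, which thus disagree. SIGIRR, an inhibitory receptor that restrains IL-33 signalling, was higher at both probe sets, with log2 ratios of 0.18 and 0.64. MYD88, the adaptor of the pathway, had 9637 and 10081.

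Type 2 cytokines and their receptors had small differences in both directions. Of 16 genes with a probe set, 13 were measured, 8 higher and 5 lower, with a median log2 ratio of 0.02 and 0 past 2-fold. The split was 10 higher and 3 lower under median scaling, and 9 and 4 after quantile normalization or lowess trend removal. IL4 was below the floor at both probe sets, while IL5 had 323 with siRNA-Tbet and 252 with siRNAc, and IL13 had 190 and 257. CRLF2, a subunit of the receptor for TSLP, had a log2 ratio of 0.36 (259 against 202). NFIL3, a bZIP factor of innate lymphoid cells, had -0.40 (1026 against 1353). IL2RG, the shared cytokine receptor chain, had 19250 and 18942, a difference whose sign turned after quantile normalization (-0.03).

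Of 18 Th17 genes with a probe set, only 9 were measured, and 8 of those were higher and 1 was lower with siRNA-Tbet. The 8 above the floor on both arrays had log2 ratios from -0.03 to 0.20. The ninth, IL17F, has only a lower bound, and with it at that bound the median of the list was 0.10. Among all measured genes 46.5% were higher. BATF, an AP-1 factor of many lymphocytes, had 12257 with siRNA-Tbet and 10662 with siRNAc, and HIF1A, the hypoxia factor, had 21468 and 19583. KLRB1, which encodes the surface receptor CD161 of Th17 and natural killer cells, had 3821 and 3688. Of the Th17 cytokines, IL17F passed the floor on the siRNA-Tbet array only (157 and 111). IL17A, IL22, IL26 and IL21 were below the floor on both arrays, as were the receptors IL23R and CCR6. RORB, the paralog of RORA, was below the floor too. Of 6 ROR-related genes with a probe set, 4 were measured, 2 higher and 2 lower (median log2 ratio 0.02). NRIP1, a coregulator of nuclear receptors, had 0.14 and -0.10 at its probe sets.

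The AHR pathway was read at 10 of 11 genes with a probe set, 6 higher and 4 lower (median log2 ratio 0.06, 0 past 2-fold). That split turned to 3 higher and 7 lower after quantile normalization (median -0.05) and with the lowess trend removed (median -0.02). CYP1A1, the classical AHR target, had 250 with siRNA-Tbet and 350 with siRNAc (log2 ratio -0.49, percentile 12.2 of its decile). Other genes of the list went both ways at their representing probe sets. CYP1A2 had 0.33, TIPARP 0.09 and CYP1B1 0.05 (-0.04 after quantile normalization), while AHRR had -0.10 and NQO1 -0.08. ARNT, the dimer partner of AHR, had -0.18 at its probe set of highest signal, but 3 of its 5 measured probe sets were higher. The chaperones HSP90AA1 and HSP90AB1, which hold AHR in the cytoplasm, were higher at 4 of 4 and 3 of 3 probe sets, with log2 ratios of 0.09 and 0.23 at the representing ones, where signals of 44481 to 53030 may be compressed. After quantile normalization HSP90AA1 was at -0.06, so its direction depended on the scaling. Of 7 MAF relatives with a probe set, 6 were measured, 2 higher and 4 lower (median -0.08). BACH1, a repressor that pairs with small MAF proteins, had -0.25 (2855 against 3398) and 0.17 at its measured probe sets.

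Partners and opponents of BCL6 were measured at 9 of 9 genes with a probe set, 4 higher and 5 lower (median log2 ratio -0.01, 0 past 2-fold), with 5 higher and 4 lower under median scaling, quantile normalization and lowess trend removal alike. BCOR, its corepressor, had 2 probe sets higher and 2 lower, with 0.44 at the representing one (3142 against 2321). PRDM1, which encodes BLIMP-1 and is repressed by BCL6, had -0.62 at its representing probe set (357 against 551) and 0.08 and 0.43 at the others. Follicular helper genes were measured at 4 of 10, 2 higher and 2 lower (median -0.07). ASCL2, a factor of follicular helper T cells, had 1231 and 911 (log2 ratio 0.43), and ICOS, a costimulatory receptor, had 1842 and 2069.

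For TCF7 itself no value is given, and its relatives were read in its place as a group. Of 12 genes of the TCF, LEF and β-catenin list, 8 were measured, 6 higher and 2 lower (median log2 ratio 0.04, 0 past 2-fold). LEF1 and TCF7L1 were below the floor. TCF7L2 had 8597 and 8593 at its representing probe set and was lower at the other 6 (at 5 of them after median scaling). The corepressor TLE4 was higher at 4 of 4 measured probe sets, with 0.67 at the representing one (1705 against 1075), and CTNNB1, which encodes β-catenin, had -0.32 (4533 against 5646) and 0.23.

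Ligands and relatives of CCR4 and PTGDR2 were measured at 10 of 15 genes with a probe set, 4 higher and 6 lower (median log2 ratio -0.04). CCL17 and CCL22, the ligands of CCR4, were below the floor on both arrays. HPGDS, which makes the PTGDR2 ligand prostaglandin D2 in blood cells, had 5058 with siRNA-Tbet and 5033 with siRNAc. The other synthase, PTGDS, was the single gene of this list past 2-fold (0.577% of all measured genes were). It was at least 2.08-fold lower at 211748_x_at (81.7 against 305) and also lower at 211663_x_at (109 against 163), with siRNA-Tbet under the floor at both. Both are of a type that can cross-hybridise. PTGS2, the inducible cyclooxygenase upstream of both, had log2 ratios of 0.27 and 0.31 (8060 against 6681 for the first).

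**Figure D3:**
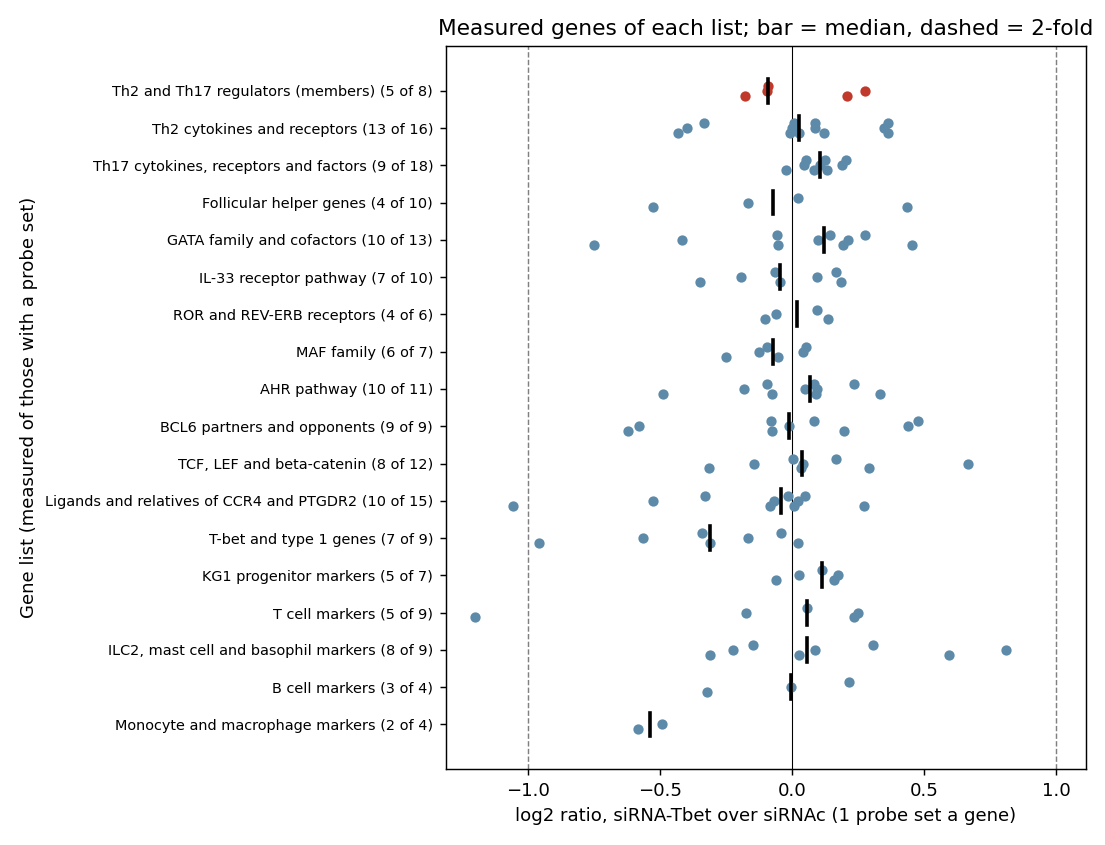
log2 ratio of siRNA-Tbet over siRNAc for each measured gene (points, 1 probe set a gene, 1 array per group), by gene list, with the list median as a black bar and 2-fold as dashed lines. The 5 measured members (red) lie between -0.18 and 0.27. The T-bet and type 1 list, which holds the targeted TBX21 and also TBXA2R, has a median of -0.31.

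Of 9 genes of the T-bet and type 1 list with a probe set, 7 were measured, 1 higher and 6 lower, with a median log2 ratio of -0.31. Among all measured genes 46.5% were higher. The 6 include TBX21, which the siRNA targets, and IFNG (31243 against 35136, log2 ratio -0.17). STAT4 was close to equal on the arrays (-0.04). TBXA2R, the thromboxane A2 receptor, is also counted, at -0.34 with its other probe sets from -0.75 to 0.06. The list median is the ratio of IL12RB1, whose other probe sets had -0.62 and 0.01. CXCR3, the chemokine receptor of type 1 cells and counterpart of CCR4, had 263 and 390 at its brighter probe set (log2 ratio -0.57) and -0.08 at the other.

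Markers of the cell line and of other cells were read beside these results; summed signals are over all listed genes with a probe set, each at its highest probe set. CD34, the progenitor antigen of KG1, had 17130 with siRNA-Tbet and 15839 with siRNAc, and 5 of 7 KG1 markers with a probe set were measured (median log2 ratio 0.11). KIT and PROM1 were below the floor. Of 9 T cell markers, 5 were measured, with summed signals of 19863 and 17830, of which CD3D made up 16036 and 13657. CD3G, CD8A, CD5 and CD28 were below the floor. CD4 gave 29.1, under the floor, with siRNA-Tbet and 337 with siRNAc at 203547_at, at least 2.30-fold lower (0.577% of all measured genes differed 2-fold). Its other probe set was below the floor on both arrays (2.92 and 4.49). Of 9 markers of mast cells, basophils and type 2 innate lymphoid cells, 8 were measured, 5 higher and 3 lower, with summed signals of 32154 and 28232. The largest ratios of that list were those of TPSB2, a mast cell tryptase (1587 against 907, log2 ratio 0.81, percentile 99.7 of its decile), and ENPP3, a basophil marker (254 against 169, 0.59). Both passed 1.5-fold (6.41% of all measured probe sets did), each at a probe set of the _x_at type. TPSAB1, the other tryptase of the list, had 1301 and 1278 at its representing probe set (log2 ratio 0.03). Its other measured probe sets had log2 ratios from 0.003 to 0.06. HDC, histidine decarboxylase, had 22249 and 18018. Of 4 monocyte markers, 2 were measured and both were lower, with summed signals of 843 and 1207 and CD14 below the floor (4.54 and 6.34); 3 of 4 B cell markers were measured, with summed signals of 2041 and 1929. The part of these markers in the small differences of GATA3, IL1RL1 and BCL6 was not tested. In bulk RNA, fewer cells of a type and less RNA per cell cannot be told apart.

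**Figure D4:**
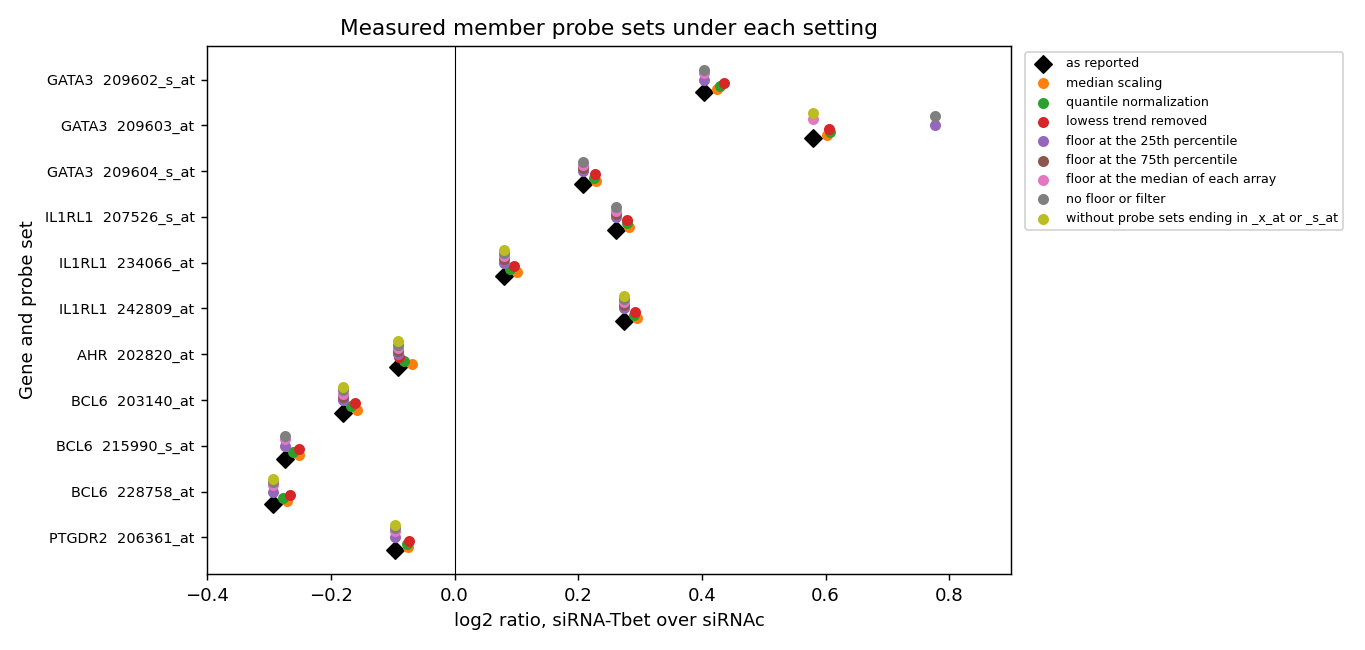
log2 ratio of siRNA-Tbet over siRNAc for the 11 measured member probe sets as reported (black diamonds; 209603_at at its lower bound) and under 8 other ways of scaling, flooring or selecting (coloured circles); a missing circle means that the probe set was not measured under that setting. All 6 probe sets of GATA3 and IL1RL1 stay right of 0 and all 5 of BCL6, AHR and PTGDR2 stay left of it.

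The directions of the 11 measured probe sets did not depend on the scaling of the arrays. Under median scaling, quantile normalization and removal of the lowess trend, 6 stayed higher and 5 stayed lower, and the ratios at the representing probe set of GATA3 ran from 0.21 to 0.23. The size for GATA3 depended on the probe set: without probe sets ending in _x_at or _s_at only 209603_at was left, at 0.58 or more. A direction kept under other scalings of the same arrays is no replicate.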

How the data were processed

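The authors deposited 1 linear MAS5 intensity per probe set for each array, per the submitters' processing notes, which name no version. Both had a trimmed mean (2% off each end) of 1000, so no scaling was added. Detection calls and probe-level values were not used. Names come from the platform annotation, with symbols updated through Entrez numbers to RefSeq (GRCh38.p14). It gives 1 gene for 41097 of 54675 probe sets (41043 matched RefSeq), several for 1801, which were left out, and none here for 11777. Signals were floored at 146.4 and compared as log2 ratios. A gene was read by its measured probe set of highest mean signal, avoiding _x_at where possible. Percentiles are among measured probe sets of the same of 10 signal deciles. From each of 17 other lists, every gene was counted, and the names came from the 4 largest ratios and 2 highest signals. Also named, picked after their values were seen, were genes below the floor and IL17F, IL18R1, KLRB1, STAT3, IL21R, TPSAB1, CYP1B1, TIPARP, AHRR and NQO1. The members and lists were chosen with earlier results of these data known. The steps were tested on simulated data with shifts larger than those of the members, placed at probe sets of high signal only. That test therefore does not cover the small differences reported here. Python 3.11.15, pandas 2.3.3 and statsmodels 0.14.6 were used.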

Additional observations from a re-analysis of the deposited data

How the results depend on the processing

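The log2 ratios of the 5 measured members, TBX21 and IFNG kept their sign under each alternative that gave a value. Of 62 such values, 61 moved by less than the spread of 0.25 between probe sets of a gene. The exception was GATA3 at its lower bound of 0.58 without probe sets ending in _x_at or _s_at. Many of the 62 could not move, because a probe set above the floor on both arrays keeps its ratio when the floor changes. Median scaling shifts all such ratios by the same amount. The count of 61 is therefore no measure of how reliable the ratios are. The median over member genes ran from -0.09 to -0.07 in all alternatives but the floor at the 75th percentile, where it was 0.06 because fewer genes were measured. With no floor or filter, 5 of 28 member probe sets differed 2-fold (22.6% of all non-control probe sets did) and 11 were higher; those 5 belong to RORA and MAF at signals below the floor. Without probe sets ending in _x_at or _s_at, 3 of 7 were higher. At the median floor, 0 member probe sets passed 1.5-fold or 3-fold. Counted after the values were seen, 1 (209603_at of GATA3) passed 1.5-fold under median scaling, quantile normalization and lowess trend removal, 2 (with RORA 239550_at) at the 25th percentile floor, and 7 with no floor. Leaving out a replicate was not possible with 1 array per group. No paired analysis was possible because each group holds 1 array. Low signal limits MAF, RORA and CCR4, for which no ratio is given.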

Other observations

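Some genes of the Th17 list are given at all of their measured probe sets. They were picked after their values were seen. The 3 probe sets of IL6R, the ligand-binding chain of the IL-6 receptor, differed by 0.12, 0.21 and 0.45 on the log2 scale (5596 against 5142 for the brightest), and of all genes with exactly 3 measured probe sets 14.7% had all 3 higher. IL6ST, which encodes the shared chain gp130, had log2 ratios of 0.19, 0.39 and 0.43 at the 3 probe sets above the floor on both arrays. At 204863_s_at (157 against 93.1) and 211000_s_at (151 against 78.5) siRNAc was under the floor. Its remaining probe sets, 234474_x_at (5.54 against 49.5) and 234967_at (7.97 against 4.09), were below the floor on both arrays and give no ratio. STAT3, the transcription factor downstream, had 0.05, 0.14, 0.43 and 0.43. IL21R, the receptor for IL-21, had 0.43 and 0.54 at 2 probe sets (percentiles 97.5 and 98.0 of their deciles) and -0.03 at the third. No background share was computed for genes with 4 or 5 measured probe sets, and none of these differences has a replicate.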
